A study of Mus musculus with 2 samples.

Results

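The genes described here are those of the ATP-binding cassette (ABC) family in the adrenal gland. Members are protein-coding genes whose symbol is Abc, a subfamily letter from a to g, a number and in some cases a copy letter. Of 50 symbols that match, Abca1 and Abcg1 were left out, which gave 48 members among 21901 genes with a coding transcript and 55536 genes in all. Total RNA was sequenced from adrenal glands of male B6CASTF1/J mice, a hybrid strain from The Jackson Laboratory, at 2 months of age. The series holds 1 group of 2 libraries, named replicate 1 and replicate 2, each made from 300 ng of RNA after ribosomal RNA was reduced, with a strand-keeping kit and ERCC spike-in RNAs. No mutation, transgene or treatment is given for the animals. The labels number the libraries as separate biological replicates and the sample descriptions name different males, but the library descriptions name the same male and the donor field is the same. The spread between the libraries may therefore be technical.

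ABC proteins bind and split ATP in a pair of nucleotide-binding domains. In subfamilies A to D and G these domains drive transport across a membrane, while the proteins of subfamilies E and F have no membrane-spanning part and work on ribosomes. P-glycoprotein exports a wide range of drugs and other hydrophobic molecules, corticosteroids among them, and the mouse encodes it in a pair of genes, Abcb1a and Abcb1b. In the adrenal gland the family is best known for P-glycoprotein.

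Expected counts over genes summed to 36182740 in replicate 1 and 34149995 in replicate 2, and members took 0.364% and 0.423% of them. Levels are given in TPM, which divides reads by transcript length and scales every library to the same total, so they can be compared between genes. Markers of the labelled tissue were present. All 8 adrenal cortex markers were at 1 TPM or more in both libraries, with summed levels of 15444 and 17160 TPM. So were all 9 markers of the chromaffin cells of the medulla, with 2580 and 2242 TPM. That level was also reached by 54.5% of coding genes and by all 6 white and all 6 brown fat markers. Reaching it therefore does not single out a tissue. Markers of white fat summed to 3291 and 2611 TPM, of brown fat to 1531 and 778 TPM and of red cells to 1949 and 1174 TPM, lower in replicate 2. Fewer cells of a type and less RNA per cell cannot be told apart in such bulk tissue.

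The results turn on Abcb1b and its copies, so their sequences are shown first. Abcb1a (ENSMUSG00000040584.8) lies on chromosome 5 from 8660077 to 8748575, Abcb1b (ENSMUSG00000028970.9) from 8798147 to 8866315 and Abcb4 (ENSMUSG00000042476.12) from 8893717 to 8959231, all on the plus strand of GRCm38 (mm10). The main coding sequences of the 3 genes are 3828 bases long each. Abcb1a and Abcb1b were identical at 88.0% of 3819 aligned bases in the GENCODE M21 transcripts. Abcb4, which moves phosphatidylcholine into bile, was 75.6% identical to Abcb1a and 74.0% identical to Abcb1b. The least alike window of 90 bases tells the copies apart at 29 bases, in capitals, at coding bases 1883 to 1972 of Abcb1a and 1892 to 1981 of Abcb1b:
Abcb1a: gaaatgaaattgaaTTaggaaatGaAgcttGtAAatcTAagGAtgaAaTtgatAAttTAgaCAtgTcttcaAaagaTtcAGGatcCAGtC
Abcb1b: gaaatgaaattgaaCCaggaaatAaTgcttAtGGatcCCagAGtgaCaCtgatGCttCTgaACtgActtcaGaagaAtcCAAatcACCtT
The longest identical run was 338 bases. It holds the ABC signature motif of the first nucleotide-binding domain, whose codons are in capitals in these 100 bases, coding bases 1539 to 1638 of Abcb1a and 1548 to 1647 of Abcb1b:
Abcb1a: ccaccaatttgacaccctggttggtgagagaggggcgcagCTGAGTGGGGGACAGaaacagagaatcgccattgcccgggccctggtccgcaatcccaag
Abcb1b: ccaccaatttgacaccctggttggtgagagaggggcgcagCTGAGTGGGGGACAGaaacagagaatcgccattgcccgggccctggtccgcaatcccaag
A read of 100 bases from this stretch fits both genes. Such shared windows were 367 of 4898 (7.49%) of the windows of 100 bases in the Abcb1a transcript and 367 of 4207 (8.72%) in that of Abcb1b. Abcb1b and Abcb4 shared 0 such windows, and Abcb1a and Abcb4 shared 11.

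Abcb1b was by far the most abundant member. Its level was 755.53 TPM in replicate 1 and 949.39 TPM in replicate 2 (852 ± 137, SD, n = 2), from 85860 and 99332 expected counts. It held 69.4% and 72.8% of the summed TPM of all members, and stood 25.1-fold and 32.3-fold above the member next in order. Among all genes with a coding transcript it ranked 32 in replicate 1 and 24 in replicate 2. The other 47 members together reached 333 and 355 TPM, less than Abcb1b alone in either library.

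**Figure D1:**
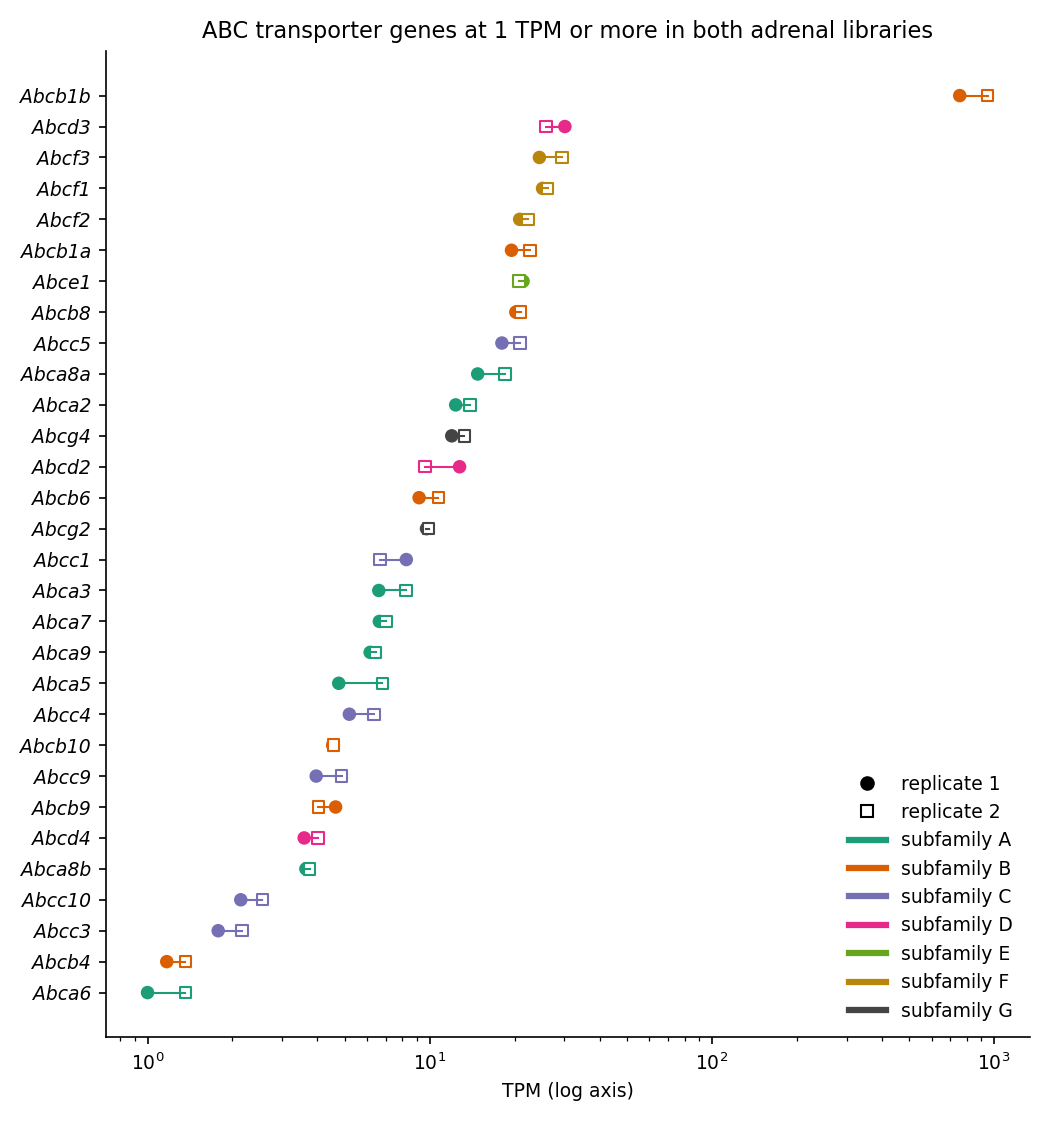
Level in TPM on a log axis of 30 of the 32 members at 1 TPM or more in both libraries, with a filled circle for replicate 1 and an open square for replicate 2, coloured by subfamily. Abcb1b, at 755.53 and 949.39 TPM, stands apart from all other members, which reach at most 30.13 TPM.

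Abcb1a, the other P-glycoprotein gene, was at 19.49 and 22.67 TPM (21.1 ± 2.25, SD, n = 2), from 3665 and 3955 counts. Abcb1b therefore took 95.9% (95% Clopper-Pearson interval 95.8 to 96.0) of the counts of the pair in replicate 1 and 96.2% (96.1 to 96.3) in replicate 2. In TPM, Abcb1b was 38.8-fold and 41.9-fold above Abcb1a. The read-based tables, a separate quantification of the same libraries, gave Abcb1b 96.1% and 96.3% of the estimated counts of the pair. The quantifier's own uncertainty in dividing shared reads, its posterior SD, was 22.1 and 22.0 counts for Abcb1a, which is 0.602% and 0.555% of its count. All intervals given cover counting error alone. They may be too narrow even for that, because the libraries carry no molecular identifiers and PCR copies of 1 molecule can be counted more than once.

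Abcb4 was at 1.17 and 1.36 TPM, from 175.27 and 188.18 counts, so Abcb1a was 16.7-fold above it in each library. By read-based TPM that fold was 10.6 and 12.3. The 3 neighbouring genes thus fell in the order Abcb1b, Abcb1a, Abcb4 in both libraries and by both quantifiers, with no overlap between the libraries' values. A processed pseudogene, Gm17936, lies within Abcb4 on the same strand and held 181.4 and 196.06 counts, close to those of Abcb4 itself. By TPM the pseudogene was higher than Abcb4, at 5.25 and 6.1. The posterior SD of the Abcb4 count was 0.5 and 0.42 counts, or 0.285% and 0.223% of it. The read-based tables gave Abcb4 275.6 and 273.8 estimated counts, a gap between quantifiers that this SD does not cover.

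Most of the Abcb1b counts came from 1 transcript. Abcb1b-201, a coding transcript of 4306 bases, took 92.8% of the gene's counts (mean of both libraries) but 64.1% of its TPM, at 488.4 and 603.82 TPM. Abcb1b-206, annotated as coding at 613 bases, held 3.16% of the counts and 17.8% of the TPM. Abcb1b-203, at 690 bases and annotated for nonsense-mediated decay, held 3.28% of the counts and 16.2% of the TPM. Levels per length raise short transcripts, so the transcripts under 1000 bases summed to 263.72 and 338.76 TPM. The full-length Abcb1b-201 alone was still 16.2-fold and 20.5-fold above the whole gene level of the next member, and 25.1-fold and 26.6-fold above Abcb1a. The quantifiers differed on Abcb1b-208, also annotated for decay, at 3181 bases: it had 0 expected counts in both alignment-based tables and 6567 and 8061 estimated counts in the read-based ones. Read-based TPM gave Abcb1b-201 a share of 58.3% and Abcb1b-203 a share of 23.9%.

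**Figure D2:**
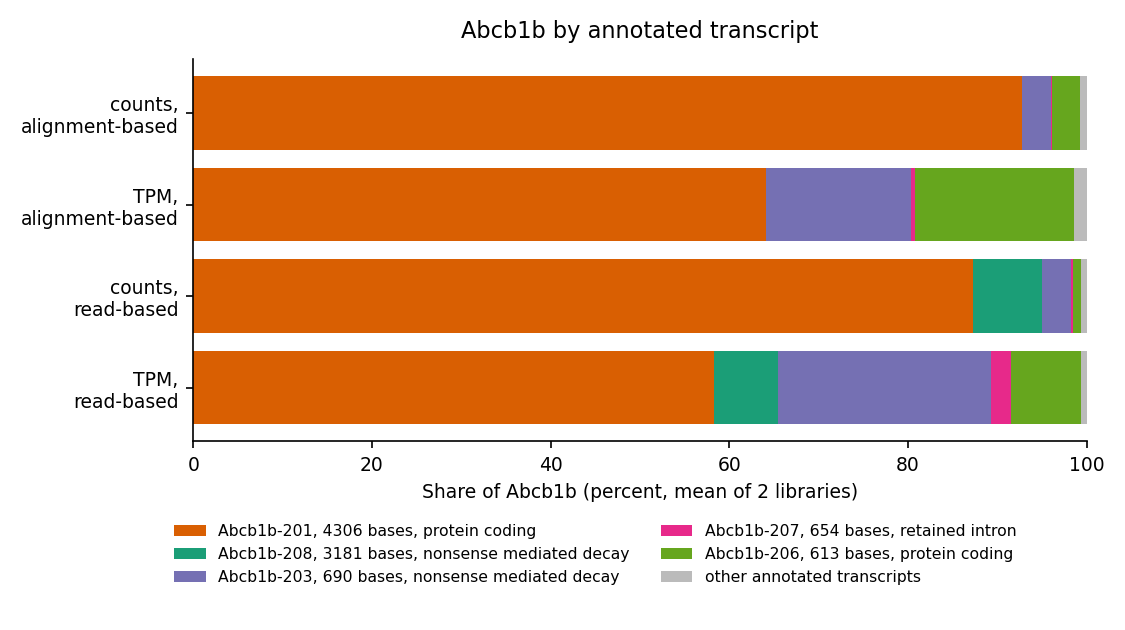
Share of Abcb1b held by its annotated transcripts, in percent (mean of 2 libraries), as stacked bars for the counts and the TPM of the alignment-based and the read-based tables. Abcb1b-201 holds 92.8% of the counts and 64.1% of the alignment-based TPM, and the short Abcb1b-203 and Abcb1b-206 hold larger shares of TPM than of counts.

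The 250 bases upstream of the RefSeq start of Abcb1b, chr5:8797897-8798146 on the plus strand of GRCm38.p6, are shown for the member whose RNA led the family, with the same stretch of its neighbour Abcb4, chr5:8893471-8893720. Capitals mark matches to CCAAT (read as ATTGG on the other strand) and to the GC box GGGCGG:
Abcb1b: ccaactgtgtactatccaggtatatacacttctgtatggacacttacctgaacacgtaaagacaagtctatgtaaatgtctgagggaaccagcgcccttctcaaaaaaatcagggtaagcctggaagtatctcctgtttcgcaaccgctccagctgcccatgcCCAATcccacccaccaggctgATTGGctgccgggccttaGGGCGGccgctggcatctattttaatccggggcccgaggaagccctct
Abcb4: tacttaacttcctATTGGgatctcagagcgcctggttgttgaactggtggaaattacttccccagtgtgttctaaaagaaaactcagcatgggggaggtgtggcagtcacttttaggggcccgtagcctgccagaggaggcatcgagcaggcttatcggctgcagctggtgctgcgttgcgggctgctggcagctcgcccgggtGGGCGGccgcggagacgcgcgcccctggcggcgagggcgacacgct
The RefSeq start of Abcb1b is the GENCODE start, while that of Abcb4 lies 4 bases from it. The Abcb1b window held a CCAAT box on each strand and a GC box, and the Abcb4 window a CCAAT box on the minus strand and a GC box. The RefSeq start of Abcb1a lies 92986 bases upstream of its GENCODE start and its window held no match, which says only that these letters are not in that window. Promoters from 250 bases before to 50 bases after the start were found for 37 of the 48 members, 44 promoters in all. CCAAT on either strand was in 36.4% of them and in 37.4% of all 32851 promoters in the table, and GGGCGG in 45.5% and 35.7%. TATAAA was in 13.6% of both. AAGGTCA, a nuclear receptor half-site, was in 3 member promoters (6.82%, against 4.72% of all), those of Abcc10, Abcc2 and Abcg2, and the cAMP response element TGACGTCA in 2 (4.55%, against 1.79%), those of Abce1 and Abcg2. The Abcb1b window held neither. Each motif was searched on both strands and counted once per promoter, none of them contains another, and a match is a description, not a site.

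Of the 48 members, 32 (66.7%) were at 1 TPM or more in both libraries. Among all genes with a coding transcript, 54.5% reached that level. A level of 10 TPM or more in both was reached by 12 members. Near that level, Abcg2, at 9.74 and 9.92 TPM, stood above 73.3% and 72.4% of coding genes. All 4 ribosome-associated genes, all 4 members of subfamily D and 8 of the 10 members of subfamily B were at 1 TPM or more, against 8 of 15 in subfamily A, 6 of 10 in C and 2 of 5 in G. Of the 31 neighbouring pairs in the order of mean level, 21 overlapped between the libraries and 10 did not. The pairs apart included Abcb1b and Abcd3, Abcf1 and Abcf2, and Abca8a and Abca2, the last in the other order by read-based TPM. The order from Abcf2 to Abca8a, by contrast, cannot be read gene by gene.

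By alignment-based TPM the ribosome-associated genes lay close together. Abce1, which splits ribosomes after translation ends, was at 21.42 and 20.71 TPM. Abcf1, which assists translation initiation, was at 25.11 and 26.17 TPM, Abcf2 at 20.83 and 22.29 TPM and Abcf3 at 24.47 and 29.42 TPM. All 8 values thus lay between 20.71 and 29.42 TPM, and the genes together held 8.44% and 7.56% of the members' TPM. By read-based TPM they lay further apart, from 34.59 for Abcf2 in replicate 1 to 68.13 for Abcf3 in replicate 2. Genes that work beside the ribosome-associated ones ran over a wider range by alignment-based TPM. Of the ribosome recycling and rescue factors, Gspt1 was at 34.59 and 35.12 TPM, Etf1 at 28.83 and 31.26 TPM, Hbs1l at 18.2 and 18.91 TPM and Pelo at 7.16 and 7.61 TPM. The initiation factor subunits Eif2s2 and Eif2s1 were at 30.67 and 31.99 TPM and at 24.11 and 25.59 TPM, and the kinase Eif2ak4, which senses uncharged tRNA, at 4.92 and 5.44 TPM. Of 4 recycling genes and 3 initiation and GCN genes found, all 7 were at 1 TPM or more in both libraries. Among all coding genes, 54.5% reached that level. The counting interval of the ratio between the libraries included 0 for each of the 7. Among all genes with enough counts, 18.5% had intervals above 0 and 20.3% below. The interval of Abce1 itself lay below 0, at −0.21 to −0.06, while those of Abcf1, Abcf2 and Abcf3 included 0.

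Subfamily D holds the peroxisomal half-transporters. Abcd3, an abundant protein of the peroxisomal membrane, was next after Abcb1b by mean level, at 30.13 and 25.86 TPM (28.0 ± 3.02, SD, n = 2). Abcd2, a peroxisomal carrier of fatty acids, was at 12.76 and 9.62 TPM. Of this, 4.56 and 2.82 TPM lay on Abcd2-202, a processed transcript of 320 bases to which the read-based tables gave 0 counts. The coding Abcd2-201 was at 7.97 and 6.8 TPM. Abcd4, which acts in the lysosome on vitamin B12, was at 3.59 and 4.02 TPM. Pex19, Pex16 and Pex3, which place proteins in the peroxisomal membrane, were at 32.3 and 29.72, 29.4 and 26.69, and 12.84 and 10.13 TPM.

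Among the half-transporters of mitochondria, Abcb8 was at 20.19 and 21.01 TPM. Abcb10, linked to haem synthesis, was at 4.53 and 4.55 TPM, below Abcb8 in both libraries without overlap. Abcb6, a porphyrin carrier, was at 9.17 and 10.74 TPM, and Abcb9, a peptide carrier of lysosomes, at 4.64 and 4.03 TPM. The list for haem and iron-sulfur synthesis has 9 genes and shares 1 with the members. All 9 were at 1 TPM or more, beside 54.5% of coding genes. They were led by Alas1, the first enzyme of haem synthesis, at 489.35 and 816.97 TPM, and the scaffold Iscu, at 190.27 and 206.53 TPM.

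Other exporters of drugs and conjugates at the plasma membrane were far below Abcb1b. Abcc5, an exporter of cyclic nucleotides, was at 18.02 and 20.88 TPM. Abcg2, the breast cancer resistance protein, was at 9.74 and 9.92 TPM, Abcc1 at 8.26 and 6.66 TPM and Abcc4, which exports cyclic AMP and prostaglandins, at 5.19 and 6.34 TPM. Abcc10 was at 2.14 and 2.55 TPM and Abcc3 at 1.78 and 2.16 TPM. Abcc2, the canalicular conjugate exporter of liver, had 10 and 12 counts, or 0.05 and 0.13 TPM. The 9 exporters of this kind, with Abcb1b and Abcb1a among them, summed to 820 and 1021 TPM. Without Abcb1b, but with Abcb1a, the sum was 64.7 and 71.3 TPM. A list of 23 carriers of organic anions, organic cations and bile acids from solute carrier families, most of them for uptake, was also read. Of these, 4 were at 1 TPM or more in both libraries, where 54.5% of coding genes were. They were led by Slco3a1 at 13.53 and 13.07 TPM and Slco2b1 at 6.63 and 6.65 TPM. In the same list, 5 carriers had 0 counts.

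By alignment-based TPM, lipid transporters of subfamily A were led by Abca8a at 14.79 and 18.48 TPM. It lies in a run of 5 related genes on the minus strand of chromosome 11, from 109932190 to 110337716, which also holds Abca9 at 6.15 and 6.44 TPM, Abca5 at 4.76 and 6.79 TPM, Abca8b at 3.64 and 3.75 TPM and Abca6 at 1.0 and 1.36 TPM. All 5 genes of this run were thus at or above 1 TPM, beside 54.5% of all coding genes. Abca8a and Abca8b were identical at 73.8% of aligned coding bases and shared 0 windows of 100 bases, and Abca8a took 72.2% and 71.1% of their joint counts. In another run, on chromosome 7, Abca14 had 1 and 5 counts, and Abca15 and Abca16 had 0 in both libraries. Of the pair on chromosome 17, Abca3, the lipid carrier of lung surfactant, was at 6.6 and 8.25 TPM, while Abca17 had 6.03 and 7.03 counts, so Abca3 held 99.6% of their joint counts in both libraries. Abca2, an endolysosomal lipid carrier known from brain, was at 12.36 and 13.88 TPM and Abca7 at 6.63 and 6.99 TPM. By read-based TPM Abca2, at 23.57 and 31.55, stood above Abca8a, at 21.31 and 20.58. Abca2 also had more expected counts than Abca8a in each library, but over a greater transcript length. That length was 6085 and 6267 bases for Abca2 against 4267 and 3305 for Abca8a, so the counts do not order their levels.

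The sterol exporters of subfamily G differed widely. Abcg4, known from brain and for passing cholesterol to lipoproteins, was at 11.97 and 13.25 TPM. Abcg5 and Abcg8, which work as a pair in liver and intestine, had 0 and 0 counts and 1 and 2 counts. Abcg3 was at 0.21 and 0.19 TPM, and Abcg2 was 46.4-fold and 52.2-fold above it, although the coding sequences of the 2 genes were 68.5% identical. The sulfonylurea receptors, which are channel subunits and not pumps, also differed: Abcc9 was at 3.96 and 4.87 TPM and Abcc8 at 0.48 and 0.64 TPM, from 40 and 43 counts. Of the potassium channel pores they assemble with, Kcnj8 was at 3.49 and 3.44 TPM and Kcnj11 at 0.84 and 0.71 TPM.

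The 16 members below 1 TPM were sparse. Besides Abcc8, 2 had a mean of 20 or more counts, Abca4, the retinal carrier, with 44 and 32 counts, and Abcg3, with 23 and 20 counts. A further 8 had between 0 and 12 counts in each library: Abcc2, Abca14, Abcc6, Abca17, Abca13, Abcb11, the bile salt export pump, Abcg8 and Abcc12. The other 5, Abca12, Abca15, Abca16, Abcb5 and Abcg5, had 0 expected counts in both alignment-based libraries. The read-based tables gave Abca12 1.00 and 2.17 estimated counts and Abca16 0 and 1, and the other 3 genes 0. A count of 0 allows up to 3 counts, or 0.0829 CPM in replicate 1 and 0.0878 CPM in replicate 2, so these genes were not detected at this depth in the alignment-based tables. Of the 4 exporters of bile and sterols in liver and intestine, Abcb4, Abcb11, Abcg5 and Abcg8, only Abcb4 was at 1 TPM or more. That level was reached in both libraries by 54.5% of coding genes.

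Because of Abcb1b, subfamily B held 75.6% of the members' TPM in replicate 1 and 78.4% in replicate 2 (77.0 ± 1.98%, SD, n = 2). Without Abcb1b its other 9 members summed to 67.77 and 73.83 TPM. The 3 genes of subfamily F summed to 70.41 and 77.88 TPM, above those 9 in each library, though the ranges of the 2 sets overlap. Subfamily A summed to 56.48 and 66.56 TPM over 15 genes and subfamily D to 55.04 and 48.59 TPM over 4 genes. Subfamily C followed with 39.93 and 44.28 TPM, subfamily G with 21.93 and 23.38 TPM, and Abce1 alone makes up subfamily E. The level of the middle gene set the subfamilies further apart, from 24.47 and 26.17 TPM in F and 10.66 and 9.355 in D to 6.61 and 6.995 in B, 1.96 and 2.355 in C, 1.00 and 1.36 in A and 0.21 and 0.19 in G. This order was the same in both libraries.

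**Figure D3:**
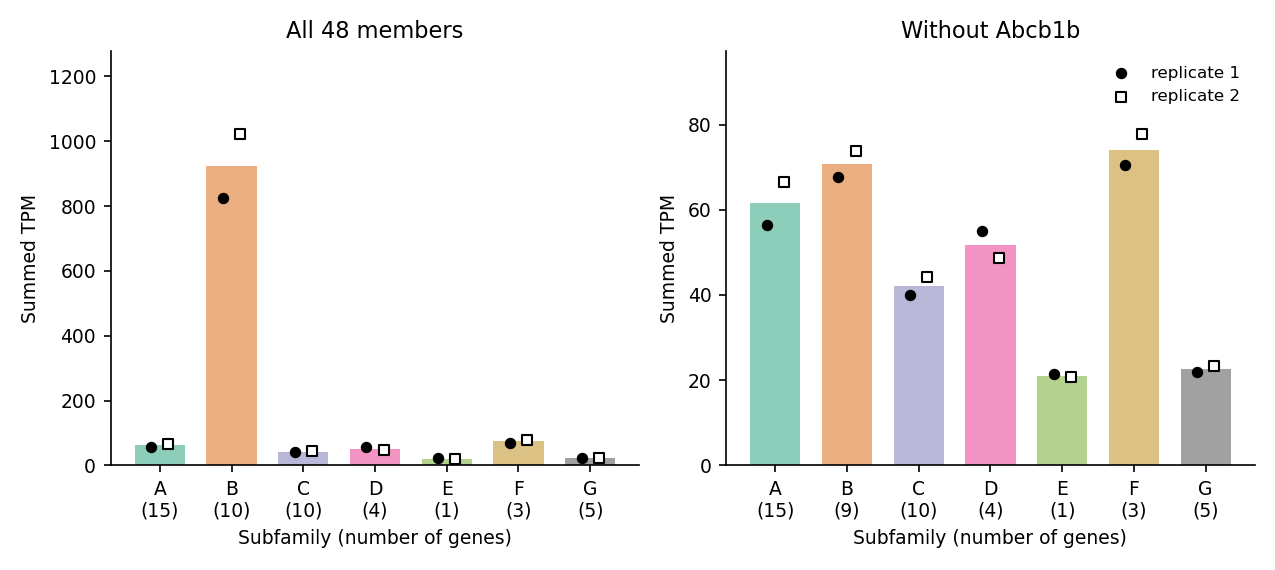
Summed TPM of each subfamily, with bars for the mean of 2 libraries and a point for each, for all 48 members (left) and without Abcb1b (right). Subfamily B reaches 823 and 1023 TPM with Abcb1b and 67.77 and 73.83 TPM without it, next to 70.41 and 77.88 TPM for subfamily F.

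Differences between the libraries were small. With 1 library against 1 library there is no replicate check of a difference and no p-value. Each difference is a log2 ratio, replicate 2 against replicate 1, of expected counts after TMM scaling, a normalisation that centres most genes. It was read for the 32 members that averaged at least 100 counts. Of these, 0 were over 2-fold apart, a gap that 0.451% of the 12430 genes with as many counts showed, and 0 were over 1.5-fold apart, against 2.66%. The middle absolute log2 ratio was 0.09 in members and 0.11 in all those genes. The counting interval lay above 0 for 7 members (21.9%, against 18.5% of all genes) and below 0 for 6 (18.8%, against 20.3%). These shares are near the background.

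The largest ratio upward was that of Abca5, which had 928 and 1231 counts (log2 ratio 0.41, interval 0.29 to 0.54). Abcc4 followed with 1082 and 1281 counts (0.25, interval 0.13 to 0.37). Abcb1b had a log2 ratio of 0.22 (0.20 to 0.23) and Abcb1a of 0.12 (0.05 to 0.18), so the counting intervals of both P-glycoprotein genes lay above 0. Abcc10, Abca3 and Abca2 had intervals above 0 as well. Of the 8 adrenal cortex markers, 4 had intervals above 0 and 2 below, and the median of the list was 0.05, where 18.5% of all genes lay above 0 and 20.3% below. Of the 6 endothelium markers, 4 had intervals above 0 and 0 below, with a median of 0.09. Nr5a1, the steroidogenic factor that drives cortical genes, was at 87.32 and 102.8 TPM, with a log2 ratio of 0.14. Their part in the higher Abcb1b level was not tested.

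The largest ratio downward was that of Abcd2, with 1725 and 1360 counts (log2 ratio −0.34, interval −0.44 to −0.23). Abcb9 followed with 607 and 489 counts (−0.30, interval −0.48 to −0.13) and Abcd3 with 3715 and 3033 counts (−0.29, interval −0.35 to −0.22). Abca8a, Abce1 and Abcb8 had intervals below 0 as well, but the TPM ratio turned the direction of Abca8a, to 0.32, and of Abcb8, to 0.057. The other 11 of the 13 members had the same sign under all 5 other scalings tried. Intervals were computed with TMM scaling alone, and some ended near 0, at 0.0014 for Abcc10 and −0.013 for Abcb8. Which intervals leave out 0 can therefore depend on the scaling. The peroxisomal import genes were lower in replicate 2 too: the intervals of all 3 lay below 0, where 20.3% of all genes did. Their log2 ratios were −0.18 for Pex19, −0.23 for Pex16 and −0.43 for Pex3. Markers of fat were also lower, with all 6 white adipocyte markers (median −0.52) and 5 of 6 brown adipocyte markers (median −1.02) below 0. Ucp1 was at 628.88 and 303.18 TPM, and 7 of 9 medulla markers (median −0.27) had intervals below 0. Other lists were lower as well: all 6 pericyte and smooth muscle markers (median −0.33), 5 of 6 markers of capsule and stroma (−0.31) and all 5 red cell markers with enough counts (−0.77) had intervals below 0. Their part in the lower Abcd2 and Abcd3 levels was not tested.

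Among 19 transcription regulators known to act on ABC genes, 16 were at 1 TPM or more, with 3 intervals above 0 and 7 below, beside 54.5% of coding genes at that level and 18.5% and 20.3% of all genes with intervals above and below 0. Ppara, a fatty acid receptor that switches on peroxisomal genes, was at 14.14 and 9.03 TPM (log2 ratio −0.73), and Pparg, the receptor of fat cells, at 22.52 and 16.66 TPM (−0.56). Nr1h2, the oxysterol receptor LXR beta, was at 30.59 and 35.48 TPM (0.16), while Nr1h3, LXR alpha, went the other way, at 16.43 and 12.76 TPM (−0.44). Nr1i2, the xenobiotic receptor PXR known to raise P-glycoprotein in liver and gut, had 0 counts in both libraries and Nr1i3 had 1 in each. Of the 6 scaffold proteins of apical membranes, 5 were at 1 TPM or more, led by Msn at 50.19 and 53.81 TPM and Rdx at 31.89 and 36.59 TPM. Among ABC proteins with other symbols, the antigen peptide transporter genes Tap2, at 16.08 and 20.49 TPM, and Tap1, at 5.53 and 10.23 TPM, had log2 ratios of 0.35 and 0.74, and the chloride channel gene Cftr had 9 and 8 counts.

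**Figure D4:**
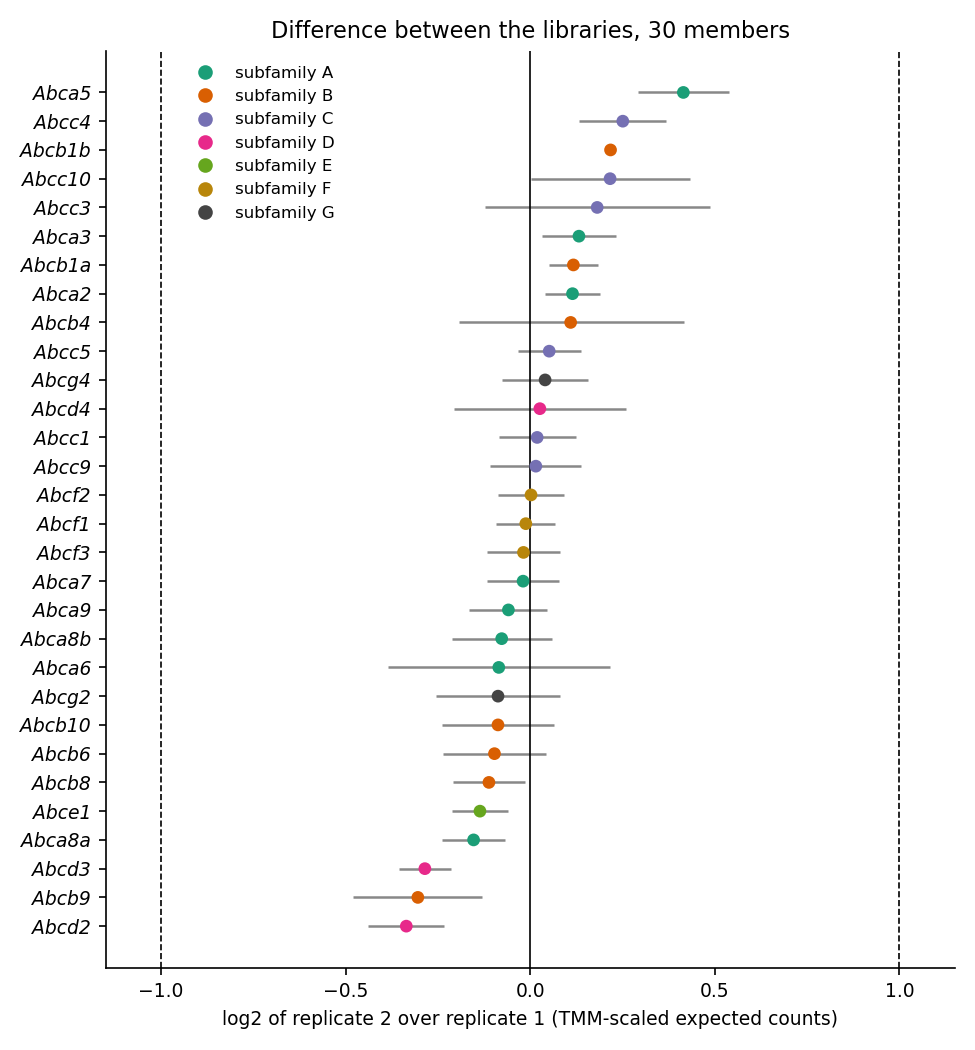
Log2 ratio of replicate 2 over replicate 1 for 30 of the 32 members that averaged at least 100 counts, with lines for the 95% counting interval and dashed lines at 2-fold. All points lie between −0.34 and 0.41, with 7 intervals above 0 and 6 below.

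Ratios of TPM and of counts did not always match. With counts scaled by library total, the scale of the next count ratios, they differed by more than 0.2 on the log2 scale for 6 members and by less for the other 26. Abcc1 had 1491 and 1503 counts and a log2 count ratio of 0.095, while its TPM gave −0.31. Its short transcript Abcc1-204, at 614 bases, had 41.23 counts in replicate 1 and 0 in replicate 2, worth 2.06 and 0 TPM. Abca8a had a count ratio of −0.077 and a TPM ratio of 0.32, and its transcript Abca8a-206, at 299 bases, had 24.86 and 45.67 counts, worth 3.2 and 6.31 TPM. The main Abca8a transcript, Abca8a-201, held 66.5% of the gene's TPM in replicate 1 and 46.3% in replicate 2. Abca6 (−0.0089 by counts and 0.44 by TPM), Abcb6 (−0.021 and 0.23), Abcf3 (0.058 and 0.27) and Abcc9 (0.091 and 0.30) also had the higher ratio by TPM.

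**Figure D5:**
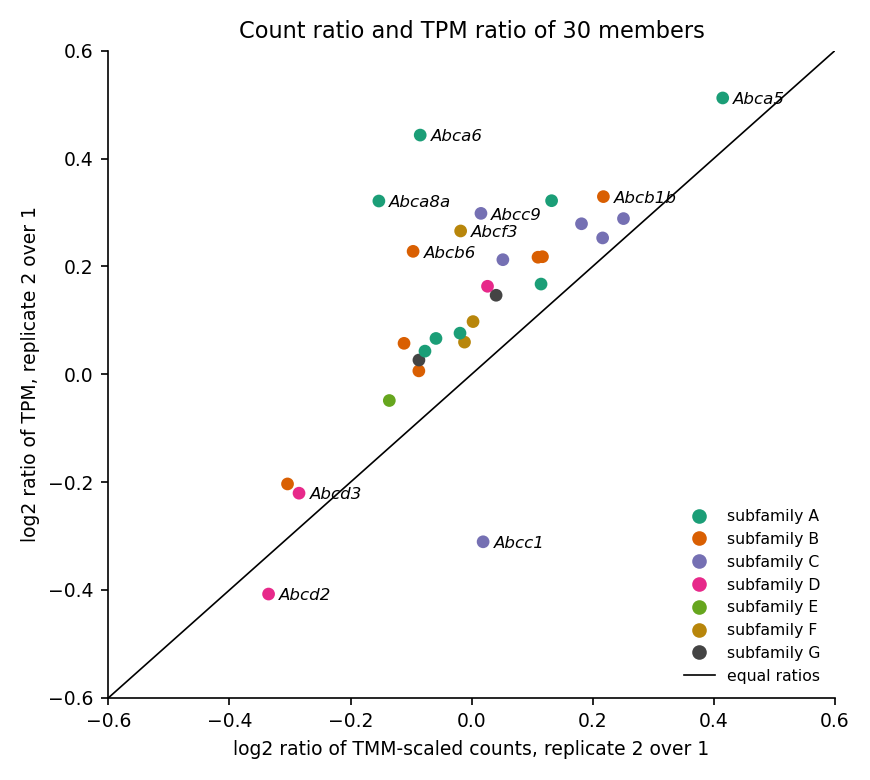
Log2 ratio of replicate 2 over replicate 1 by TPM against that by TMM-scaled counts for 30 of the 32 members that averaged at least 100 counts, with a line where both are equal. Abcc1, at 0.02 by TMM-scaled counts and −0.31 by TPM, lies below the line, and Abca6, at −0.08 and 0.44, and Abca8a, at −0.15 and 0.32, lie farthest above it.

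Of the members at 1 TPM or more, 30 have 2 or more annotated transcripts. The leading transcript was a coding one in all 30, the same in both libraries in 29 and the same by both quantifiers in 28. Its share of the gene's TPM had a median of 71.4% and ran from 27.6% for Abcc5-202 to 98.5% for Abcb1a-201. The exception between libraries was Abcg4, whose Abcg4-208 held 38.4% in replicate 1 and 25.2% in replicate 2. The quantifiers differed on Abcb8, where Abcb8-203 held 36.3% by alignment and 8.13% by the read-based tables, which placed 68.1% on Abcb8-201. They differed also on Abcc4, where Abcc4-201 held 90.6% and 35.9%, and the read-based tables placed 45.1% on Abcc4-203, a processed transcript without a coding sequence. By alignment-based TPM, only Abcc3 had most of its level on transcripts not annotated as coding in both libraries, its coding share being 44.9% and 44.0%. That share was 42.6% and 52.2% by read-based TPM, and 89.0% and 87.8% by expected counts.

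At the level of whole genes the quantifiers differed less. Read-based TPM was higher for most genes, by a median log2 of 0.85 in replicate 1 and 0.94 in replicate 2 over coding genes, so ratios were centred on these. Of 33 members compared, 0 were then over 2-fold apart in both libraries, against 1.86% of 13107 genes. The centred ratios of members ran from −0.78 for Abca8a in replicate 2 to 0.99 for Abca4 in replicate 1, with a median of −0.08 in replicate 1 and −0.07 in replicate 2. Abcb1b stood at 1249 and 1644 read-based TPM, 19.9-fold and 24.1-fold above the next member.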

How the data were processed

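Total RNA-seq of 2 adrenal gland libraries was analysed from the tables the authors deposited, on mm10 with GENCODE M21 per the labels and file notes. The aligner and quantifiers are not given in the sources used here. Alignment-based gene and transcript tables hold expected counts and TPM per the file headers, in which reads are shared among transcripts, with a posterior SD of each count. Read-based transcript tables hold, per their deposited headers, TPM and estimated counts, which were summed per gene. The deposited FPKM values and isoform percentages were not used. Of 55536 genes, 86 were absent from the read-based tables and set to 0.

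Ratios of replicate 2 over replicate 1 used expected counts plus 0.5 over library sizes scaled by TMM (edgeR 4.0.16, R 4.3.3), with exact Clopper-Pearson 95% intervals, and were read at a mean of 100 or more counts over all genes. No p-value was computed. Alternatives were total count, DESeq2 1.42.0 size factors, ERCC counts, TPM ratios and read-based counts. On simulated data for this ratio over 12410 genes, 100% of 3-fold and 4% of 1.5-fold changes were called over 2-fold, with 1 of 12210 unchanged genes. Every simulated gene was given the same spread between libraries, so this checks the calculation only. The rates do not carry over to the real libraries, where 0.451% of genes were over 2-fold apart. Coding sequences were aligned with Biopython 1.88. Transcript sequences came from GENCODE M21 and promoters from RefSeq on GRCm38.p6, of the reference strain, not of CAST.

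Members and gene lists were chosen with earlier results of these data known. Values are given for the 15 members of highest mean TPM, members far apart between libraries or quantifiers, close copies and neighbours, Abcc8 and Abcc9, members whose leading transcript differed, and the 2 genes of highest mean TPM of each partner list. Other genes named were chosen after their values were seen, as was the grouping of members by role. Single values of some members are not reported here or drawn in the figures, and counts and sums include them.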

Additional observations from a re-analysis of the deposited data

How the results depend on the processing

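The number of members at 1 TPM or more in both libraries, 32, stayed between 29 and 34 under all settings tried. The share of subfamily B, 77.0%, was 73.8% by expected counts, 20.6% without Abcb1b and 69.4% when the transcripts of Abcb1b under 1000 bases were left out, a setting chosen after seeing the data. With either library alone it was 75.6% and 78.4%. The share of Abcb1b in its pair with Abcb1a, 96.0% of counts, was 97.6% by TPM and 95.9% to 96.2% with either library alone. The count of members over 2-fold apart, 0, became 3 with no filter on counts (Abca14, Abcb11 and Abcc6, with at most 7 counts in a library) and was 0 under the other scalings. Members over 2-fold apart between quantifiers, 0, became 4 without centring, where 25.5% of genes were. The median share of the leading transcript, 71.4%, was 65.5% by read-based TPM and 67.9% to 70.3% with either library alone. By TPM the log2 ratio of Abca8a turned from −0.15 to 0.32 and that of Abcb8 from −0.11 to 0.057, and the cause was not tested. The median log2 ratio of all genes was −0.01 with TMM and −0.02 to 0.10 with other scalings. No paired analysis was possible because there is 1 group. Counts below about 100 limit what can be read of the 16 sparse members, and 2 libraries limit every spread given.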

Other observations

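Among genes within 300000 bases of Abcb1b, no coding gene came near its level. Rundc3b was at 1.74 and 2.15 TPM, Crot, a peroxisomal carnitine acyltransferase, at 9.62 and 9.82 TPM, Tmem243 at 7.81 and 8.79 TPM and Dmtf1 at 7.43 and 8 TPM. On the opposite strand Gm5106 overlaps the first 377 bases of Abcb1b and had 4 and 3 counts. Within Abcb1b on the same strand, 7330423F06Rik, an unclassified model, had 65 and 122 counts. Gm20388, a coding model on the opposite strand over the whole of Abcb10, had 257.6 and 514.86 counts, and whether the authors' counting used the strand is not given in the sources used here. D330041H03Rik, opposite to Abca3, had 86 and 84 counts.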
